A study of Mus musculus with 2 samples.

Results

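The cells described here were the megakaryocytes (Mk) of the mouse fetal liver at E12.5, a stage in the middle of gestation, taken as the 135 cells to which the deposited annotation gives the cell type Mk, out of 10537 annotated cells. The cells came from 1 wild-type C57BL/6 liver (C57BL/6J in the study's methods) and were profiled by droplet-based single-cell RNA sequencing in 2 libraries that the labels call technical replicates. Library 1 held 79 Mk cells among 5480 cells and library 2 held 56 among 5057. Mk cells were compared with the hematopoietic stem and progenitor cells of the same liver (spelled HPSC in the annotation, 421 cells) and with its early erythroid progenitors (Ery, 1750 cells). As all cells shared 1 liver, no test between animals was possible, and all intervals are 95% intervals that cover counting error only. The 2 libraries held 51969226 and 62738015 UMIs over all cells (unique molecular identifiers, each of which stands for 1 captured transcript molecule). They shared 31 cell barcodes, of which 1 belonged to an Mk cell.

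Megakaryocytes are the blood cells that release platelets. They arise from progenitors shared with the erythroid lineage, copy their DNA repeatedly without dividing and fill with granules and adhesion receptors before they shed platelets, a programme driven by the cytokine thrombopoietin and by the transcription factors GATA1, FLI1, RUNX1 and NF-E2. In the embryo they appear first in the yolk sac and then in the fetal liver.

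A level is given in CPM, the UMIs of a gene in each 1000000 UMIs summed over all cells of a type in a library. The deposited cell types had been made from the same cells, so that differences between Mk and the other types are a description, with no p-value. A gene was called higher where its level in Mk was at least 4-fold that of the other type in each library, lower where it was at most 0.25 times that level in each library, and it was considered at all where it reached 20 CPM in either type.

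The 4 genes used here to mark the cells were Pf4 (platelet factor 4, a chemokine of the alpha granules), Itga2b (integrin alpha IIb, or CD41), Ppbp (pro-platelet basic protein, the precursor of further alpha-granule chemokines) and Gp9 (a subunit of the receptor for von Willebrand factor). On the GRCm38 build, the files' annotation of the mm10 genome, Pf4 lies on chromosome 5 at 90772435 to 90773383 and Ppbp just before it at 90768518 to 90770063, both on the plus strand. Itga2b lies on chromosome 11 at 102453297 to 102470122 on the minus strand, and Gp9 on chromosome 6 at 87778072 to 87779768 on the plus strand. As the cells were marked by these 4 genes, their promoters are given as the 250 bases before the transcription start given by RefSeq for GRCm38.p6, read 5′ to 3′ along the gene. For Itga2b the RefSeq start lies inside the gene as placed above, so that most of the bases shown overlap it. Capitals mark matches, on either strand, to AGATAA (the motif of GATA factors), AGGAAG (ETS factors such as FLI1) and TGTGGT (RUNX factors).
Pf4, chr5:90772185-90772434, plus strand: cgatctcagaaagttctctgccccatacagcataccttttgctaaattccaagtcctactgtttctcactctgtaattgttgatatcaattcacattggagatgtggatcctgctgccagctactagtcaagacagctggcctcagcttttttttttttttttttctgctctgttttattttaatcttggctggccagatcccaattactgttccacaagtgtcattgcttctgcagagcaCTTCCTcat
Itga2b, chr11:102469884-102470133, minus strand: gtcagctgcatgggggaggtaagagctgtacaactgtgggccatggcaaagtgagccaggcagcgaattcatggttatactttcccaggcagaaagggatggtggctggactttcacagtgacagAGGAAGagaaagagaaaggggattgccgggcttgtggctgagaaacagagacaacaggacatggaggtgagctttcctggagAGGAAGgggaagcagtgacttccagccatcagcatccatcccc
Ppbp, chr5:90768268-90768517, plus strand: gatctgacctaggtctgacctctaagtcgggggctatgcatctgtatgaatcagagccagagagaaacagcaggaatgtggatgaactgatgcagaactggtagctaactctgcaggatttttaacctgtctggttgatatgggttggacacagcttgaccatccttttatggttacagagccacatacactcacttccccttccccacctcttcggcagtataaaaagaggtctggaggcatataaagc
Gp9, chr6:87777820-87778069, plus strand: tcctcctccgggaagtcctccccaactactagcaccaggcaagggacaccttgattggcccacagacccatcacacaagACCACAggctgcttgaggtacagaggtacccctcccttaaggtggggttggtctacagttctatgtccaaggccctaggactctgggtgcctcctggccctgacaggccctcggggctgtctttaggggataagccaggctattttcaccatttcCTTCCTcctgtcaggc

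The Itga2b promoter held the ETS letters at 125 and 43 bases before the start, Gp9 held the RUNX letters 171 bases before it and the ETS letters 16 bases before it, and Pf4 held the ETS letters 9 bases before it. The GATA letters were found 37 bases after the start of Pf4, outside the part shown. No match was found in the Ppbp window, which says only that these letters are not there. Such matches were common across all 32851 RefSeq promoter windows of 300 bases (250 before and 50 after the start). Any searched GATA word was present in 29.8%, any ETS word in 46.5% and any RUNX word in 16.8%. For the genes higher in Mk than in both other types (222 genes), a window was found for 169 of 221 symbols. Any searched GATA, ETS or RUNX word was present in 40 (23.7%), 76 and 20 (11.8%) of these windows.

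Mk cells were few and varied widely in depth. They made up 1.28% of all cells (exact binomial interval 1.08 to 1.51%), with 1.44% in library 1 (1.14 to 1.79%) and 1.11% in library 2 (0.838 to 1.44%). The 79 cells of library 1 held from 505 to 45569 UMIs, with a median of 5699, and the 56 cells of library 2 held from 4890 to 57131, with a median of 16944.5. The cell minimum itself differed between the libraries, as the shallowest annotated cell of any type had 504 UMIs in library 1 and 4387 in library 2. In library 1, 35 of the 79 Mk cells (44.3%, 33.1 to 55.9%) lay under 4387 UMIs, against 2 of 213 HPSC (0.939%) and 165 of 932 Ery (17.7%). HPSC held a median of 16053 UMIs in library 1 and 14956 in library 2, and Ery 22587 and 23236.5, so that the median depth of the Mk cells of library 1 was below that of both. Summed over cells, Mk held 770048 UMIs in library 1 and 1014143 in library 2. The median share of mitochondrial UMIs was 2.50% and 2.62% in the 2 libraries.

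The cells were first examined for the 4 markers. At least 2 of them were detected in 102 of the 135 cells (75.6%, 67.4 to 82.5%), with all 4 in 47 cells and 3 in 44. By comparison, at least 2 markers were found in 36 of 421 HPSC (8.55%), in 164 of 1750 Ery (9.37%) and in 77 of 7432 erythroblasts (Eryb, 1.04%), and no HPSC had 3. The label thus fitted most but not all of the cells: 26 Mk cells had none of the 4 markers and 7 had 1, of which 22 were in library 1 and 11 in library 2. These 33 cells held 13.4% of the UMIs of all Mk cells. All 135 cells formed cluster 20 of the deposited clustering.

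**Figure D1:**
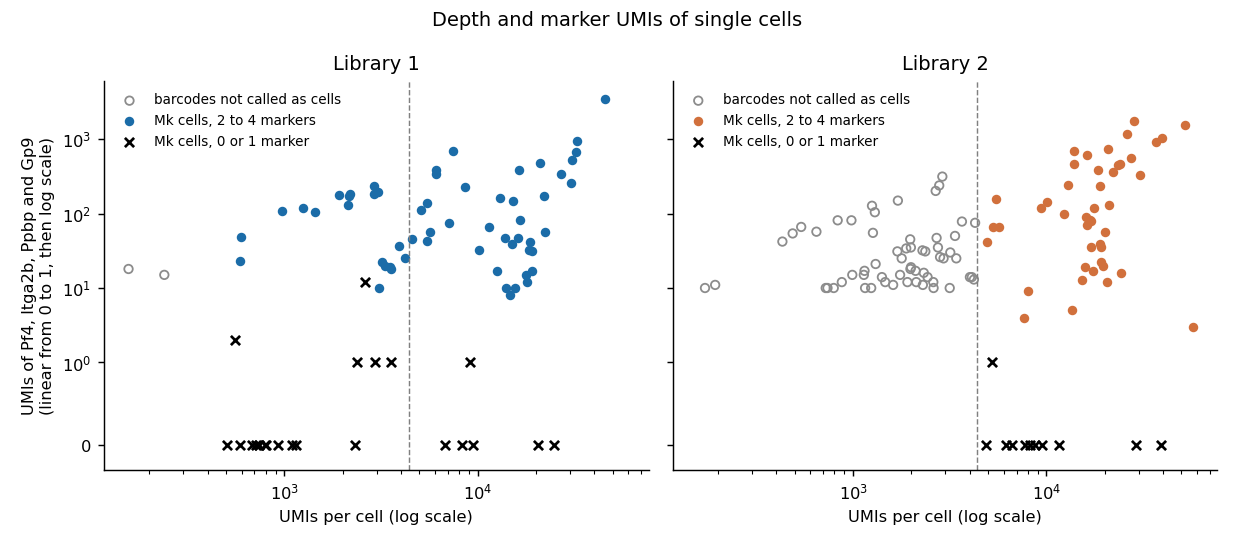
UMIs per cell (x axis, log scale) against summed UMIs of Pf4, Itga2b, Ppbp and Gp9 (y axis, linear from 0 to 1 and then log) for each Mk cell and for each barcode that was not called as a cell but had at least 10 UMIs of the 4 markers, in each library; the dashed line marks the lowest UMI count of an annotated cell in library 2, 4387. Most of the 33 cells with at most 1 marker (crosses) lie at or near 0 marker UMIs over the whole range of depth, and 59 uncalled barcodes with marker UMIs lie left of the line in library 2 against 2 in library 1.

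Depth divided the 33 cells with few markers. Of these, 16 had under 3600 UMIs, all of them in library 1. The other 17 cells, 6 in library 1 and 11 in library 2, had 3600 UMIs or more. In 12 of these 17 cells the genes Col1a1, Col1a2 and Col3a1 (chains of the fibrillar collagens) and Ptn (pleiotrophin, a secreted growth factor) together had at least 10 UMIs, whereas this was the case for 1 of the 102 cells with at least 2 markers. In 3 other cells of the 17 the adult globins made up at least 20% of UMIs, as in 4 of the 102, and 2 cells had neither feature. Of all 33 cells, 4 had over 10% mitochondrial UMIs. Among them was 1 of the 12 deep cells with collagen and Ptn UMIs. It had 9164 UMIs, of which 59.0% were mitochondrial, and 12 UMIs of the collagen genes and Ptn.

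Levels over the 33 cells differed from those of the 102 in many genes. Pf4 was at 12.6 CPM in the cells with at most 1 marker and at 12443 CPM in those with at least 2, which the choice of the cells made so. Of genes not used in that choice, Gp1bb (a further subunit of the von Willebrand factor receptor) had no UMI in the 33 cells and 1047 CPM in the 102, and the transcription factor gene Fli1 was at 12.6 and 190 CPM. Slc6a4 (the serotonin transporter) was at 67.1 CPM in the 33 cells and 100.3 in the 102, a ratio of 0.67 (0.37 to 1.12) within counting error. Its 16 UMIs in the 33 cells lay in 2 cells of library 1. A UMI of Gp5, Gp6, Slc6a4, Treml1, Myl9 or Gp1bb was present in 4 of the 16 shallow and 11 of the 17 deeper cells with few markers. In the opposite direction, Ptn was at 1972 CPM in the 33 cells and at 18.1 CPM in the 102, and Id3 (an inhibitor of basic helix-loop-helix factors) at 600 and 1.94 CPM. Further genes with this pattern encode proteins of the extracellular matrix, with Col3a1 at 520 and 9.70 CPM, Dcn (decorin) at 231 and 1.29 CPM and Lum (lumican) at 231 and 3.88 CPM. Wt1, a transcription factor gene, had 17 UMIs in the 33 cells and none in the 102. No fixed marker list for cells with such genes was available, and they were given no other name. Values below are given for all 135 cells, as annotated, and where the 33 cells carried a result the level in the 102 cells is given beside it.

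**Figure D2:**
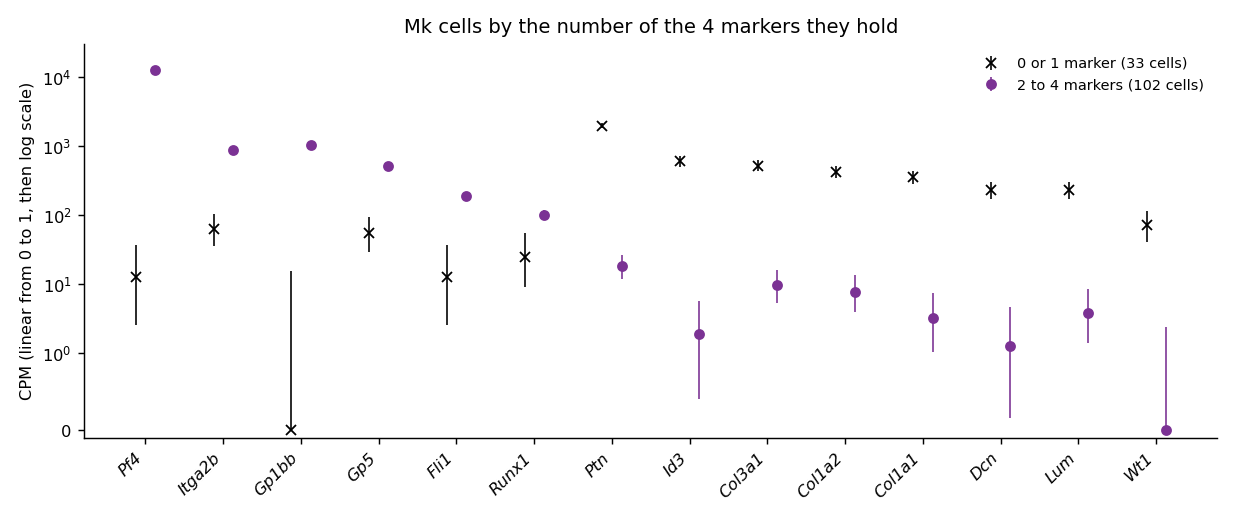
Levels in CPM (y axis, linear from 0 to 1 and then log) of 14 genes in the 33 Mk cells with at most 1 of the 4 markers (crosses) and in the 102 with at least 2 (filled points), both libraries pooled, with exact Poisson 95% intervals. Pf4, Itga2b, Gp1bb, Gp5, Fli1 and Runx1 were higher in the cells with markers, and Ptn, Id3, Wt1 and the matrix genes were higher in the cells without.

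The 4 markers were far above their level in the other types. Pf4 was at 10364 CPM in library 1 and 11100 in library 2, against 6.67 and 5.76 in HPSC and 15.1 and 11.5 in Ery, a pooled ratio of 1729 to HPSC (1274 to 2410) and 810 to Ery (741 to 888). With the RNA free in the droplets subtracted (measured below), Pf4 in HPSC was at the floor of 3 counts, for a ratio of at least 24567. Ppbp was at 3026 and 1009 CPM, against 1.16 and 1.28 in HPSC and 5.67 and 1.06 in Ery. Itga2b was at 1051 and 561 CPM, against 6.38 and 8.64 in HPSC and 13.6 and 14.2 in Ery. Except for Pf4, levels were higher in library 1, which held the shallow cells. Gp9 was at 1264 and 602 CPM, against 23.8 and 19.8 in HPSC and 16.3 and 14.5 in Ery, so that its ratio to HPSC of 40.5 (34.2 to 48.4) was the smallest of the 4. In no case did the Mk libraries overlap with those of the other types.

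Single Mk cells differed greatly in these genes. The median cell had 14 UMIs of Pf4 in library 1 and 38 in library 2, and the highest had 2231 and 1491. The cell with 2231 held 28.0% of the Pf4 UMIs of its library, which was at 7937 CPM without it. The 10 cells with most Pf4 held 71.2% of its UMIs in library 1 and 71.7% in library 2. Ppbp was more uneven, with 50 of 79 and 37 of 56 cells at 0 and with 89.8% and 96.3% of its UMIs in the top 10 cells. To compare cells at 1 depth, each cell with at least 3600 UMIs was thinned at random to 3600 UMIs. Of the 102 Mk cells that were deep enough (33 left out, all in library 1), 74.5% then had a UMI of Pf4 (64.9 to 82.6%), 71.6% of Itga2b, 73.5% of Gp9 and 29.4% of Ppbp. These values are from 1 random draw, and on average over draws they were 70.3%, 67.9%, 71.3% and 28.1%. The same number of cells as of those with at least 2 markers was a coincidence, as 85 cells were in both sets. Without thinning the shares were 70.4%, 77.8%, 74.8% and 35.6% of all 135 cells. On average over draws Pf4 was found in 2.62% of HPSC, 2.48% of Ery and 3.16% of Eryb, at median depths of 15462, 22845.5 and 7287 UMIs before thinning against 11585 in Mk.

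The amount of these transcripts in the RNA free in the droplets was also measured. In barcodes of 1 to 50 UMIs, which hold free RNA, the adult globins made up 19.3% of UMIs in library 1 and 37.9% in library 2, whereas in Mk they made up 1.54% and 5.27%. If every adult globin UMI of the Mk cells were free RNA, it would be 7.95% and 13.9% of their UMIs and would bring 14.0 and 26.1 UMIs of Pf4, where 7981 and 11257 were found. The same calculation allowed 27.1 of 32 UMIs of Klf1 (an erythroid transcription factor) in library 1 and 47.5 of 115 in library 2, and 41.1 of 42 and 93.8 of 156 UMIs of Rhd (a red cell membrane protein).

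The genes of highest level in Mk were led by Tmsb4x (thymosin beta 4, which binds actin monomers), at 20821 CPM in library 1 and 15543 in library 2. Tmsb4x was also at 4927 CPM in HPSC and at 362 in Ery. Next came Hbb-bs, Pf4, Hbb-bt and Hba-a1, followed by mt-Atp6, Actg1, mt-Co3, Malat1, Eef1a1, Actb, Rps2, Rpl13a, Ppia and Rps4x, that is globin, mitochondrial, actin and ribosomal genes beside Pf4, the elongation factor gene Eef1a1, the cyclophilin gene Ppia and Malat1. This order is of both libraries pooled, and the globins differed between them, with Hbb-bs at 6507 CPM in library 1, below Pf4, Malat1, mt-Atp6, Actg1 and mt-Co3, and at 21112 CPM in library 2. Single Mk cells held very unequal shares of adult globins, as given below. Malat1, a long non-coding RNA that stays in the nucleus, was at 9521.5 CPM in library 1 and 3193 in library 2, against 1768 in HPSC and 888.5 in Ery.

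Across all genes, Mk differed more often from HPSC by lower levels than it did from Ery. Of 5791 genes compared with HPSC, 282 were higher in Mk (4.87%) and 208 lower (3.59%). Of 5545 compared with Ery, 473 were higher (8.53%) and 45 lower (0.812%). The median log2 ratio over all compared genes was -0.01 against HPSC and -0.02 against Ery. In both comparisons 222 genes were higher and 7 lower. The 33 cells with at most 1 marker carried part of this, as 60 of the 282 genes were higher in them than in the other 102 cells. With the 102 cells alone, 261 genes were higher than in HPSC, of which 240 were among the 282, and 444 were higher than in Ery, of which 409 were among the 473. Lower than HPSC were then 236 genes, with 200 of the 208 among them, and lower than Ery 70, with 44 of the 45. In what follows, members of a gene list that stayed under 20 CPM in both types could not be compared. A gene under 20 CPM in the other type entered only through its level in Mk, so that counts and medians over the compared members describe them and support no statement on a list as a whole.

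The 15 genes with the largest ratio to HPSC in the library where it was smaller were Pf4, Clec1b, Ppbp, Ptn, Myl9, Gp5, Thbs1, Gp1bb, Ly6g6f, Alox12, F2rl2, Proser2, F10, Cald1 and Ppp1r14a. Clec1b (CLEC-2, the platelet receptor for podoplanin) was at 1121 and 362 CPM, against 0.456 CPM pooled in HPSC, which rests on 3 UMIs, a ratio of 1511 (516 to 7335). F2rl2 (a protease-activated receptor for thrombin) was at 503 and 387 CPM, against 1.52 in HPSC. Ly6g6f, a surface protein of platelets, was at 227 and 164 CPM, with 1 UMI in all HPSC. F10 (coagulation factor X) was at 268 and 196 CPM, against 1.06 in HPSC. Among these 15 genes Ptn stood apart, as its level came from the cells with few markers. Cald1 (caldesmon, which regulates actin and myosin) was at like levels in both groups of Mk cells, 226 CPM with at least 2 markers and 252 CPM with at most 1.

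Against Ery, the corresponding genes were Ptn, Ly6g6f, Pf4, Ppbp, Gp6, Alox12, Thbs1, Col3a1, Clec1b, Meg3, Serpinh1, Itgb3, G6b, Gnaz and Cald1. Ptn, Col3a1, Meg3 (a long non-coding RNA) and Serpinh1 (a collagen chaperone) owed their place to the 33 cells, with 18.1, 9.70, 24.6 and 21.4 CPM in the other 102 against 1972, 520, 1758 and 974 CPM. Gp6 (the collagen receptor of platelets) was at 181 and 56.2 CPM with 5 UMIs in all Ery, and no UMI in HPSC, for a ratio to HPSC of at least 241 against a floor of 3 UMIs. Gnaz, a G protein subunit of platelets, was at 304 and 268 CPM, against 0.783 in Ery. G6b, an inhibitory receptor of megakaryocytes, was at 105 and 54.2 CPM, with 1 UMI in all Ery.

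The next genes encode receptors through which platelets adhere. All 4 genes of the von Willebrand factor receptor, Gp1ba, Gp1bb, Gp9 and Gp5, were higher than in both HPSC and Ery, with a summed level of 3108 CPM in library 1 and 1767 in library 2 against 25.3 in HPSC and 29.8 in Ery. Their median log2 ratio was 8.74 to HPSC and 6.43 to Ery. Over all genes 4.87% were higher than in HPSC and 8.53% than in Ery, and Gp9 was itself among the 4 markers. Gp1bb was at 1062 and 789 CPM, against 2.13 in HPSC and 7.31 in Ery. Of the integrins of platelets, 4 of 7 could be compared. Itga2b and Itgb3, the 2 chains of the fibrinogen receptor, were higher than in HPSC (4.87% of all genes). With Itga6, they were also higher than in Ery (8.53% of all genes). Itga2b was itself among the 4 markers. Itgb3 was at 343 and 183 CPM, against 1.52 in HPSC and 0.783 in Ery. Itgb1 was at 196 and 145 CPM, 2.61-fold HPSC (2.25 to 3.04), and met no call, and Itga2, a chain of a collagen receptor, had no UMI in Mk. Of 18 surface receptors 14 could be compared, of which 6 were higher than in HPSC (4.87% of all genes) and 12 than in Ery (8.53%), with Cd9 (a tetraspanin) at 1935 and 934 CPM and Treml1 (a receptor stored in alpha granules) at 897 and 378 CPM.

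**Figure D3:**
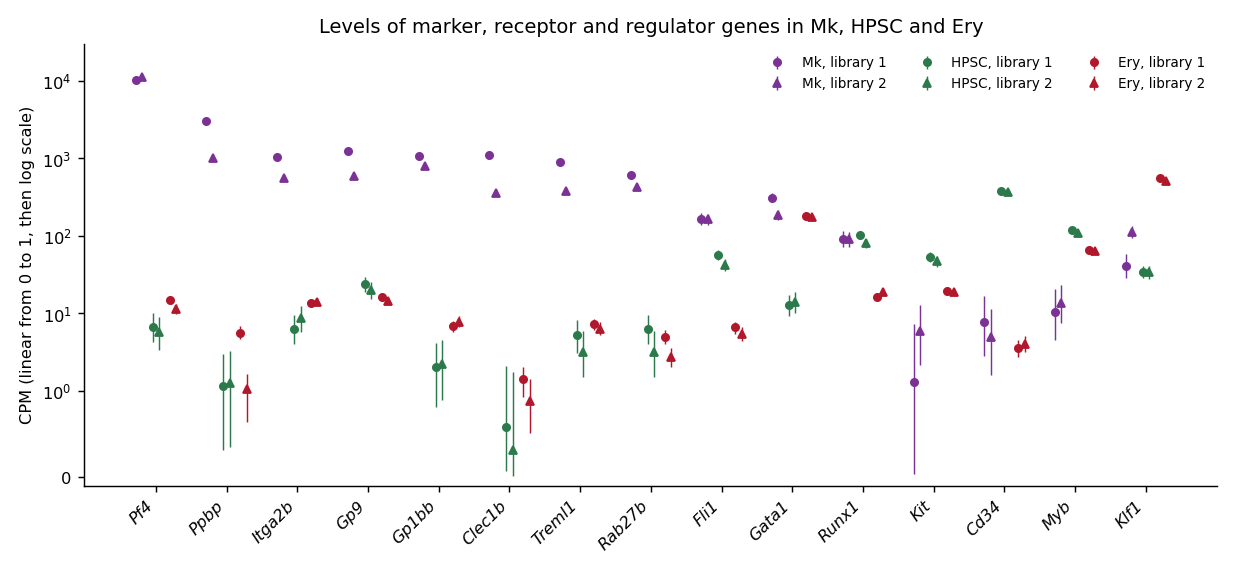
Levels in CPM (y axis, linear from 0 to 1 and then log) of 15 genes in Mk, HPSC and Ery, 1 point for each library, with exact Poisson 95% intervals. The platelet genes from Pf4 to Rab27b lie far above both other types, Fli1 lies above HPSC by a smaller step, Gata1 is at a level like that of Ery, Runx1 at one like that of HPSC, and Kit, Cd34 and Myb lie below HPSC.

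Of 15 receptors for soluble agonists, 9 reached 20 CPM in either type. Of these 9, 6 were higher than in HPSC (P2ry1, P2rx1, F2rl3, F2rl2, F2r and Ptger3), against 4.87% of all genes, and 8 were higher than in Ery, against 8.53%. F2r, a thrombin receptor, was at 396 and 362 CPM, against 15.2 in HPSC and 24.3 in Ery. The ADP receptor gene P2ry1 was at 181 and 66.1 CPM, against 4.72 in HPSC and 3.73 in Ery. Htr2a, a serotonin receptor gene, had no UMI in Mk.

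Genes of the thrombopoietin pathway met no call against HPSC. Of its 13 genes 7 could be compared, none of which was called against HPSC. Over all genes 4.87% were higher and 3.59% lower than in HPSC, so that no call among 7 genes was near the background. The median log2 ratio of the 7 genes was 0.22 to HPSC and 0.92 to Ery. Jak2, a kinase of this pathway, was at 25.97 and 19.7 CPM, 3.204-fold HPSC (2.04 to 5.004), without meeting the call.

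Granule cargo included Pf4 and Ppbp. The 31 genes of alpha granule cargo summed to 18131 CPM in library 1 and 14871 in library 2, against 1260 in HPSC and 299 in Ery. Of 20 compared with HPSC 13 were higher and 2 lower, and of 18 compared with Ery 17 were higher, with median log2 ratios of 3.64 and 6.72. Over all genes 4.87% were higher and 3.59% lower than in HPSC, and 8.53% were higher than in Ery. Thbs1 (thrombospondin 1) was at 751 and 353 CPM, with 1 UMI in all HPSC. Vwf (von Willebrand factor) was at 117 and 89.7 CPM, against 0.456 in HPSC and 2.94 in Ery. The chemokine genes Ccl3 and Ccl4 were the 2 lower ones, with 2 UMIs and none in Mk against 96.4 and 71.2 CPM in HPSC. Sparc (osteonectin) and Igf1 were counted as higher, but their levels came from the cells with few markers, at 655 and 357 CPM there against 22.6 and 4.53 CPM in the other cells. Tgfb1 was at 991 and 670 CPM, 2.24-fold HPSC (2.09 to 2.39), and Srgn (serglycin, which binds granule proteins) at 0.78-fold HPSC (0.73 to 0.85), so that neither met the call.

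For genes that build granules the median log2 ratio was 0.78 to HPSC and 1.63 to Ery. Of 26 such genes 16 could be compared with HPSC, of which 4 were higher (4.87% of all genes), and 15 with Ery, of which 6 were higher (8.53% of all genes). Rab27b, a small GTPase of granule transport, was at 616 and 426 CPM, against 4.87 in HPSC and 3.86 in Ery. Slc35d3, needed for dense granules, was at 114 and 98.6 CPM, against 10.0 in HPSC and 1.11 in Ery. Slc6a4 was uneven between the libraries at 178 and 33.5 CPM. The repressor gene Gfi1b was at 208 and 131 CPM, 6.13-fold HPSC (5.07 to 7.44) and 1.56-fold Ery (1.38 to 1.76).

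Signalling genes below the receptors had median log2 ratios of 1.19 to HPSC and 2.72 to Ery. Of 32 genes of activation signalling 29 could be compared with HPSC, of which 9 were higher and 1 lower (4.87% and 3.59% of all genes), and 28 with Ery, of which 16 were higher and 1 lower (8.53% and 0.812%). Rap1b, the GTPase that leads to integrin activation, was at 2506 and 2021 CPM, against 184 in HPSC and 128 in Ery. Its activator Rasgrp2 was at 917 and 596 CPM, against 138 and 22.2, and Fermt3 (kindlin-3, which binds integrin tails) at 897 and 659 CPM, against 127 and 120. The exception was Apbb1ip (RIAM, an adaptor between RAP1 and talin), which was at 12.99 and 9.86 CPM in Mk, 68.5 in HPSC and 51.2 in Ery. In arachidonate metabolism, Alox12 (12-lipoxygenase) was at 543 and 165 CPM and Tbxas1 (thromboxane synthase) at 191 and 89.7 CPM, both higher than in the other 2 types. These were the 2 of 5 compared genes of the list that were higher than in HPSC, and 5 of 5 were higher than in Ery, against 4.87% and 8.53% of all genes.

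The cytoskeleton list, which covers proplatelet microtubules and actin, summed to 53737 and 40732 CPM in Mk, 20073 in HPSC and 8585 in Ery. Of 39 genes 35 could be compared with HPSC and 36 with Ery. Of 35 genes 11 were higher than in HPSC, and of 36 genes 20 were higher than in Ery, with median log2 ratios of 1.59 and 2.53, against 4.87% and 8.53% of all genes. Myl9, a myosin light chain, was at 1151 and 290 CPM, with 3 UMIs in all HPSC, and Tpm4 (a tropomyosin) was at 930 and 588 CPM, against 102 in HPSC. Tubb1, the beta-tubulin of platelets, had only 11 UMIs in Mk, at 10.4 and 2.96 CPM.

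**Figure D4:**
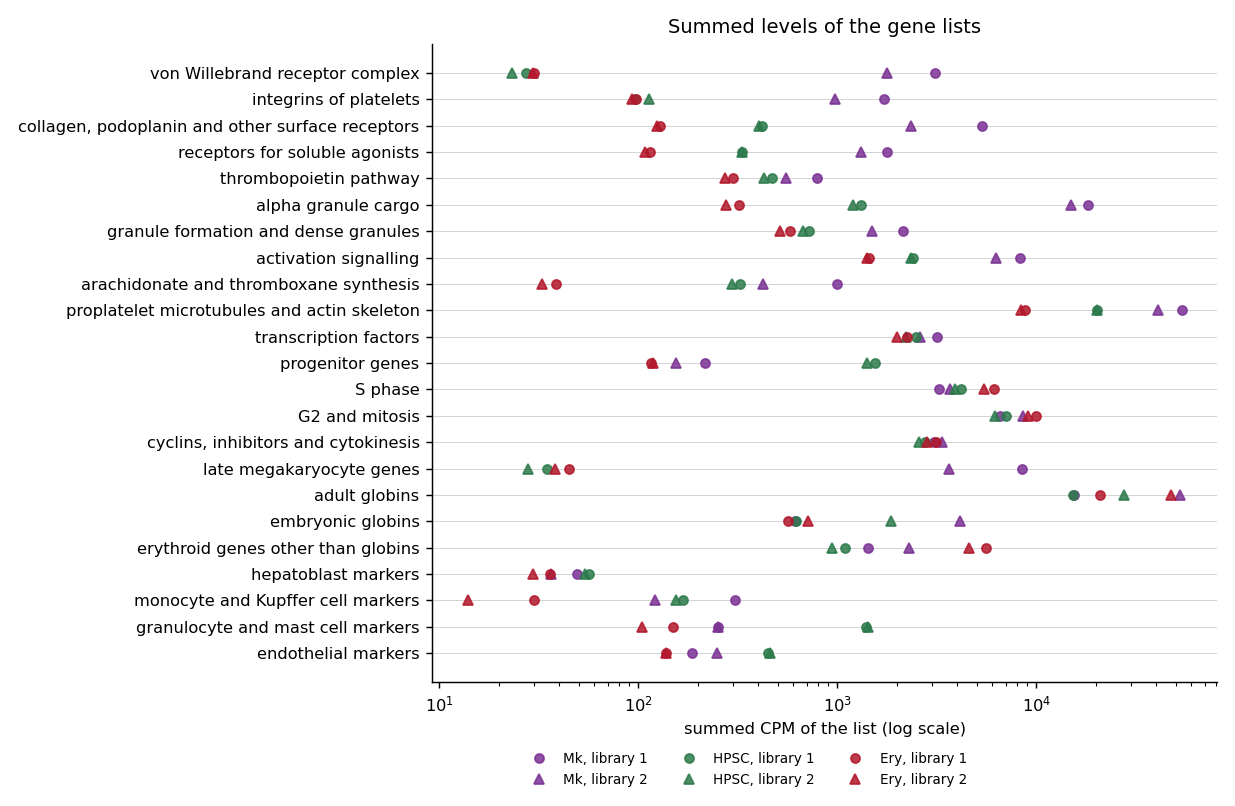
Summed CPM (x axis, log scale) of the 23 gene lists in Mk, HPSC and Ery, 1 point for each library. Lists of platelet receptors, granule cargo and late genes lie to the right in Mk, progenitor genes lie near Ery and far below HPSC, and the 2 cell cycle lists lie close together for all 3 types.

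Transcription factors differed in both directions. Of 34 factors, 28 could be compared with HPSC and 27 with Ery. Of 28 compared with HPSC 5 were higher (among them Gata1, Zfpm1, Gfi1b and Tal1) and 6 lower (Erg, Ikzf1, Myb, Myc, Spi1 and Hlf), and of 27 compared with Ery 6 were higher (among them Fli1, Runx1, Meis1, Mef2c and Mkl1) and 4 lower (Ikzf1, Klf1, Myb and Myc). The shares over all genes were 4.87% higher and 3.59% lower against HPSC, and 8.53% and 0.812% against Ery. Gata1, the factor of both the erythroid and the megakaryocyte lineage, was at 313 and 187 CPM in Mk, 12.8 and 14.1 in HPSC and 183 and 174 in Ery. Fli1, an ETS factor of megakaryocytes, was at 168 and 165 CPM, 57.4 and 42.6 in HPSC and 6.61 and 5.50 in Ery. Runx1, required for the formation of blood stem cells and for megakaryocyte maturation, was at 92.2 and 90.7 CPM in Mk, 102 and 80.6 in HPSC and 16.4 and 18.9 in Ery. Its ratio to HPSC was 0.996 (0.83 to 1.19), a difference within counting error, and its ratio to Ery was 5.18 (4.34 to 6.16). Nfe2, a factor of platelet release, was at 196 CPM, 2.15-fold HPSC (1.88 to 2.46) and 3.01-fold Ery (2.68 to 3.37).

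Other factors were lower in Mk than in one or both of the other types. Ikzf1 (Ikaros, a factor of lymphoid and other progenitors) had 10 UMIs in all Mk and was 17.6-fold below HPSC and 11.9-fold below Ery. Spi1 (PU.1, the main myeloid factor) was at 24.7 and 27.6 CPM, against 319 in HPSC. Erg, an ETS factor of stem cells, had 2 UMIs in Mk and 28.4 CPM in HPSC. Klf1, which drives the erythroid lineage, was at 41.6 and 113 CPM, against 34.5 in HPSC and 543 in Ery, and free RNA could supply most of its UMIs in library 1, as given above. The 7 genes below both other types were Apbb1ip, Myb, Ikzf1, Bcl11a, Myc, Hdac7 and 1700097N02Rik. Myb was at 10.4 and 13.8 CPM, against 114 in HPSC and 64.4 in Ery. Bcl11a, a repressor of embryonic and fetal globin genes, was at 15.6 and 18.7 CPM, against 135 and 154.

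Most progenitor genes that could be compared were lower in Mk than in HPSC. Of 16 genes 13 could be compared with HPSC. Of 13 compared with HPSC 10 were lower and 1, Slamf1 (CD150), was higher, with a median log2 ratio of -4.76, against 3.59% lower and 4.87% higher over all genes. Of 5 compared with Ery, Slamf1, Mycn and Angpt1 were higher (8.53% over all genes) and Myb was lower (0.812%). Kit, the receptor for stem cell factor, had 1 UMI in Mk of library 1 and 6 in library 2. Its level of 1.30 and 5.92 CPM compared with 53.6 and 47.0 in HPSC and 19.5 and 19.0 in Ery, and the pooled level was 12.9-fold below HPSC. Free RNA could supply 0.651 and 1.22 of these UMIs. After thinning to 3600 UMIs, a UMI of Kit was present, on average over draws, in 1.57% of 102 Mk cells, 16.3% of HPSC, 6.42% of Ery and 0.288% of Eryb. Without thinning it was present in 5.19% of Mk cells and 48.9% of HPSC. Cd34 was at 7.79 and 4.93 CPM, 61.2-fold below HPSC, and Flt3 had no UMI in Mk, which put it at least 43.3-fold below the 72.9 CPM of HPSC.

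Genes with the smallest ratio to HPSC were BC035044, Rcsd1, Ramp1, Emb, Cd34, Ccl9, Cd53, Plac8, Cd27 and Tmem173. Plac8 was the most abundant of these in HPSC, at 873 CPM against 17.9 in Mk, and came down to 9.70 CPM in the cells with at least 2 markers. Cd53, a tetraspanin of white blood cells, was at 1.68 CPM against 85.03 in HPSC, with all 3 of its Mk UMIs in the cells with at most 1 marker. Ramp1, which partners the calcitonin receptor-like receptor, was at 4.48 CPM against 270 in HPSC. Against Ery the lowest were Sphk1, Tnfaip2, Prss50, Ikzf1, Slc29a1, Bcl11a, Tmem56, Gdf3, Kcnn4 and Arhgdig. The largest of these in Ery was Slc29a1 (a nucleoside transporter), at 262 CPM against 23.4 and 31.6 in the Mk libraries. Sphk1, which makes sphingosine 1-phosphate, was at 64.1 CPM in Ery and 4.48 in Mk. In HPSC it was at 1.67 CPM, on 11 UMIs, so that Mk was 2.68-fold HPSC.

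No gene of the S phase list or the G2 and mitosis list was called. None of 40 S phase genes and none of 45 genes of G2 and mitosis was called against HPSC, and none of 40 and 46 against Ery, at background shares of 4.87% and 3.59% for HPSC and 8.53% and 0.812% for Ery. The summed level of the G2 and mitosis genes was 6584 CPM in library 1 and 8550 in library 2 of Mk, against 7054 and 6217.5 in HPSC and 9969 and 9040 in Ery. Its ratio to HPSC was 1.16 (1.13 to 1.18) with both libraries pooled, yet 0.933 in library 1 and 1.38 in library 2, so that the libraries disagreed on its direction. S phase genes summed to 3257 and 3683 CPM, against 4194 and 3913 in HPSC and 6091 and 5473 in Ery. Their ratio was 0.86 to HPSC (0.84 to 0.89) and 0.60 to Ery (0.59 to 0.62), with 0.535 to Ery in library 1 and 0.673 in library 2.

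Among 22 cyclins, inhibitors and cytokinesis genes compared with HPSC and 21 compared with Ery, Cdkn2d (p19, an inhibitor of CDK4 and CDK6) and Cdkn1c (p57) were higher than in both other types, and Ccne1 (cyclin E1) was lower than in Ery. Over all genes the shares were 4.87% higher than HPSC, 8.53% higher than Ery and 0.812% lower than Ery, so that 2 of 21 higher than Ery was near the background. Cdkn2d was at 457 and 292 CPM, against 46.1 in HPSC and 31.3 in Ery. Cdkn1c was at 240 and 536 CPM, but at 105 CPM in the cells with at least 2 markers and at 2380 CPM in those with at most 1. Ccnd3, the cyclin D3 gene, was at 709 and 554 CPM, 2.62-fold HPSC (2.42 to 2.83) and 1.93-fold Ery (1.81 to 2.05), without a call.

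Markers of other cells of the liver were then summed. Hepatoblast markers summed to 49.3 and 36.5 CPM in Mk, against 55.2 in HPSC and 32.8 in Ery, with Hnf4a at 0 and Afp the most abundant. Monocyte and Kupffer cell markers summed to 304 and 121 CPM, mostly Lyz2 (lysozyme), against 162 in HPSC and 22.1 in Ery, with Fcgr1, Adgre1, Cd5l, Mrc1 and Timd4 at 0. They were at 567 CPM in the 33 cells with at most 1 marker and at 144 CPM in the other 102, so that their ratio to HPSC was 1.24 with all Mk cells and 0.888 with the 102. Granulocyte and mast cell markers summed to 252 and 250 CPM, against 1405 in HPSC and 128 in Ery, with Ly6g, Ms4a2 and Mcpt8 at 0. They were at 95.1 CPM in the cells with at least 2 markers and at 1263 CPM in those with at most 1, where S100a8 and S100a9 had 252 UMIs, 99 and 93 of them in 2 cells. Endothelial markers summed to 186 and 249 CPM, against 450.3 in HPSC and 138 in Ery, led by Egfl7, with Ptprb at 0. Of these 4 lists, which had 1, 2, 6 and 3 genes comparable with HPSC, S100a8 and the endothelial gene Kdr were higher in Mk, and Trf, Csf1r, Mpo, Prtn3, Ctsg, Cpa3 and Emcn were lower, against 4.87% higher and 3.59% lower over all genes. Against Ery, at shares of 8.53% and 0.812%, Lyz2 and Kdr were higher, none was lower, and no hepatoblast gene could be compared.

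Erythroid genes were present at uneven levels. The adult globins summed to 15377 CPM in library 1 and 52652 in library 2, against 15285 and 27566 in HPSC and 20920 and 47467 in Ery, so that all 3 types held more in library 2, as did the free RNA. They were at 71976 CPM in the 33 cells with at most 1 marker and at 31106 CPM in the other 102, a difference seen in library 2 (114773 and 42955 CPM) and not in library 1 (14149 and 15563 CPM). Single Mk cells were very uneven in adult globins. The median cell was at 1.25% of UMIs in the 33 and at 0.842% in the 102, and 3 and 4 cells held at least 20%. The 3 cells were all in library 2, at 57.7, 50.7 and 61.1%. The deepest Mk cell of library 2, with 57131 UMIs and at least 2 markers, was at 26.4%. None of the 4 adult and 3 embryonic globins was called. The 17 other erythroid genes in the files summed to 1421 and 2286 CPM, against 1021 in HPSC and 5088 in Ery. Of 16 compared with HPSC, Epor (the erythropoietin receptor) and Car1 (carbonic anhydrase 1) were higher, and of 17 compared with Ery, Klf1 was lower, against 4.87% higher than HPSC and 0.812% lower than Ery over all genes. Epor was at 114 and 76.9 CPM, against 8.52 in HPSC and 153 in Ery. Apart from Klf1 and Rhd, given above, the part of free RNA in these levels was not tested. Embryonic globins summed to 613 and 4114 CPM, but 91.9% of the Hba-x UMIs and 91.0% of the Hbb-y UMIs of library 2 lay in 1 cell with 20533 UMIs, 3 markers and 12 marker UMIs.

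Between the libraries, Mk differed most in 5 genes that were higher in library 1 (Gstp1, Hist1h2ap, Gm10076, Hmga1 and Hist1h4h) and 5 that were higher in library 2 (Hba-x, Hbb-y, Myog, Gm10036 and Rpl13-ps3). Gstp1, a detoxifying enzyme, was at 139 CPM in library 1 and 2.96 in library 2. The same gap was present in the other types, where Gstp1 was at 147 and 3.84 CPM in HPSC and at 262 and 5.78 CPM in Ery. Gm10076 was at 941.5 and 30.6 CPM in Mk, 1169 and 41.0 in HPSC and 1092.5 and 39.2 in Ery, and Gm10036 and Rpl13-ps3 were likewise higher in library 2 in all 3 types. Myog (myogenin, a muscle factor) lay in 1 cell of each library, with 80 UMIs in a cell of library 2 that also had 98 marker UMIs.

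In library 1 the 35 Mk cells under 4387 UMIs differed from the 44 above. Pf4 was at 15346 CPM in the shallow and 9872 in the deep cells, and at 7153 in the deep cells without the cell of 2231 Pf4 UMIs. The late megakaryocyte genes (Ppbp, Gp1ba, Gp1bb, Gp5, Gp6, Gp9, Clec1b, Treml1, Tubb1 and G6b) summed to 18060.5 and 7497 CPM. Over all Mk cells, 9 of the 10 late genes were called higher than in both other types (4.87% of all genes for HPSC and 8.53% for Ery) and Tubb1 was under 20 CPM. All but Gp9 were under 20 CPM in HPSC and Ery, so that their level in Mk alone brought them into the comparison with HPSC. Ribosomal protein genes made up 10.1% of UMIs in the shallow cells and 20.8% in the deep ones. Malat1 was at 38994 and 6608 CPM, S phase genes summed to 823 and 3498 CPM, and G2 and mitosis genes to 3884 and 6851 CPM. Among cells with at least 2 markers, 19 were shallow and 38 deep, and as a shallow cell shows 2 markers only where these are a large part of its UMIs, no level of the markers or late genes is compared there. The other lists kept their direction in them, with S phase genes at 448 and 3585 CPM and G2 and mitosis genes at 3219 and 7022 CPM.

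Single genes shared this split. Among the cells with at least 2 markers, the genes with the highest ratio of shallow to deep cells were Pdzk1ip1, Acta2, Dzip1, Gadd45g and Hist2h2aa1, and those with the lowest were Pdia6, C1qbp, Apoe, Cited2 and Set. Pdzk1ip1 had 25 UMIs in the shallow and 4 in the deep cells, 533 and 6.43 CPM. All 19 Acta2 UMIs of the shallow cells lay in 1 cell, and the deep cells had 9. Pdia6, a chaperone of the endoplasmic reticulum, was at 21.3 and 595 CPM, with 1 UMI in the shallow cells. With all Mk cells, S100a6, Spp1, Pdzk1ip1, Gzmf and Gzmc were the highest, of which Gzmf and Gzmc lay in 1 cell, and Hist1h2ap, Bex4, Dctpp1, Set and Alyref the lowest.

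To follow the platelet programme among Mk cells, the cells with at least 3600 UMIs were thinned to that number and ordered within each library by their UMIs of the 10 late genes, and the order was cut into 3 groups of like size. These groups are ranges of 1 score and not cell types, and the late genes made the order. Taken over all 102 such cells, the low group of 35 cells included 17 of the cells with at most 1 marker, so that the order was also made with the 85 cells that had at least 2 markers, an alternative added after seeing the data. The values in this and the next paragraphs are from those 85 cells, with full UMIs. The low group had 29 cells and the middle and high groups 28 each. The late genes summed to 1217 and 927 CPM in the low group of libraries 1 and 2 and to 32300 and 9057 CPM in the high group. At the boundaries, cells of library 1 had up to 7 thinned late UMIs in the low group and 42 or more in the high group, and cells of library 2 up to 5 and 14 or more.

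Genes outside the late list changed along this order. Pf4 went from 1153 and 1291 CPM in the low group to 12169 and 16264 in the middle and 26063 and 20756 in the high group, 18.1-fold in all (16.7 to 19.7). In library 1 the further rise from the middle to the high group rested on the cell of 2231 Pf4 UMIs, which held 71.3% of those of the high group. Without it that group was at 12063 CPM, level with the middle one, and the high group of both libraries was 15.4-fold the low one (14.2 to 16.7). The median cell of the 3 groups had 748, 9439 and 9395 CPM of Pf4 in library 1 and 229, 12173 and 15587 in library 2. Alox12 went from 5 UMIs in the low group to 446 in the high group, at 1107 CPM. Myl9 went from 0 to 782 UMIs and Slc6a4 from 0 to 138 UMIs. Most Alox12 UMIs and all Slc6a4 UMIs of the 85 cells thus lay in the high group, whereas Pf4 was already high in the middle group. Genes with the largest ratio of the high to the low group were Myl9, Igtp, Alox12, Dusp10, Slc6a4, Ly6g6f, Slpi, Hist1h1c, Actc1 and Parvb, of which Actc1 had 93.5% and Slpi 63.6% of their UMIs in the high group in 1 cell. With all 102 cells they were Alox12, Pls1, Actc1, Ctla2b, Slc6a4, Parvb, Ly6g6f, Igtp, Smtn and Pf4.

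**Figure D5:**
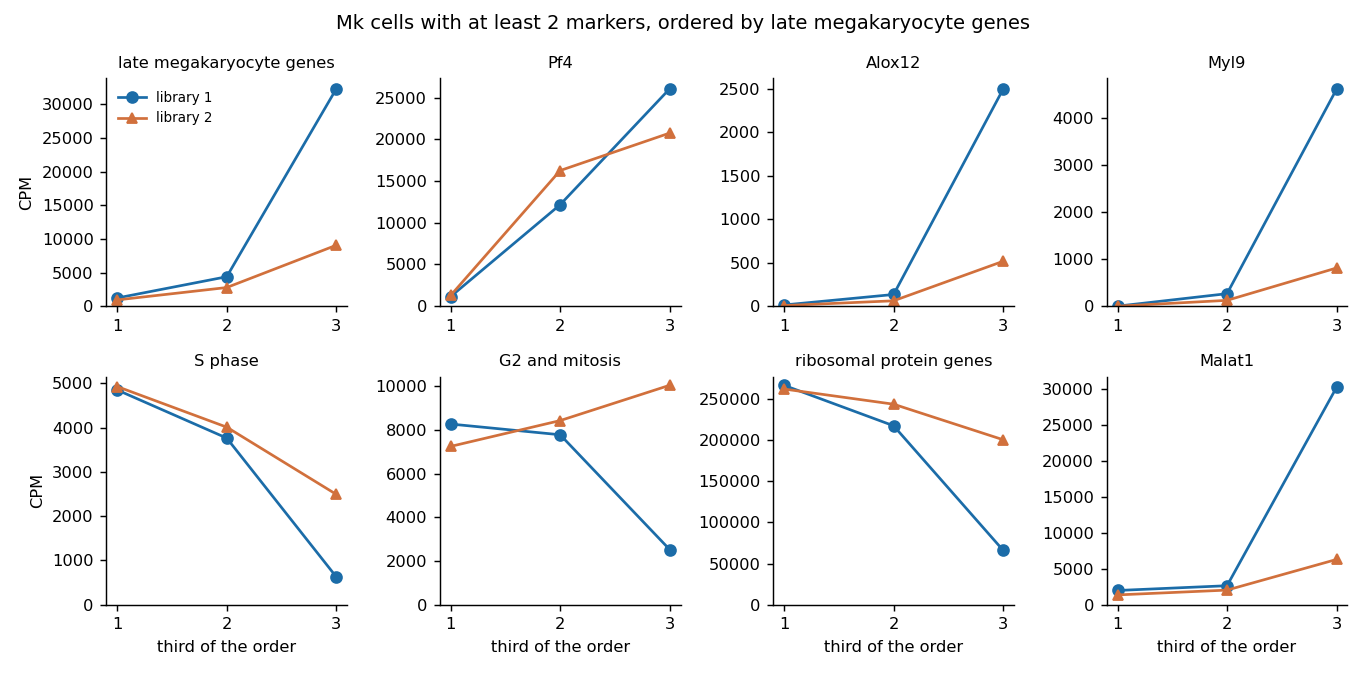
CPM (y axes, linear from 0) of the late megakaryocyte genes, Pf4, Alox12, Myl9, the S phase list, the G2 and mitosis list, the ribosomal protein genes and Malat1 in the low, middle and high group (1, 2 and 3 on the x axes) of the 85 Mk cells ordered by late genes, 1 line for each library. Alox12, Myl9 and Malat1 are higher and S phase and ribosomal protein genes lower in the high than in the low group of both libraries. Pf4 rises from the low to the middle group in both, and its further rise in library 1 rests on 1 cell, without which the high group is at 12063 CPM, while the G2 and mitosis genes fall in library 1 and rise in library 2.

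S phase and ribosomal protein genes went the other way. S phase genes summed to 4849 and 4926 CPM in the low group and to 633 and 2494 in the high group, a ratio of 0.40 (0.37 to 0.43), with 0.131 in library 1 and 0.506 in library 2. The ribosomal protein genes went from 266226 and 261714 CPM to 66191 and 200251. In library 1 the deepest cell held 67.2% of the ribosomal UMIs of the high group, which was at 34982 CPM without it. G2 and mitosis genes, by contrast, went from 8276 to 2531 CPM in library 1 and from 7253 to 10051 CPM in library 2, so that the pooled ratio of 1.01 (0.97 to 1.06) hid opposite directions. With all 102 cells, as first planned, that ratio was 1.04 (0.99 to 1.09), 0.621 in library 1 and 1.199 in library 2. The high group of library 1 had a median of 6076 UMIs per cell and 1.27% mitochondrial UMIs, against 17015 and 2.37% in library 2. The shallow cells of library 1 likewise had fewer G2 and mitosis UMIs per UMI than its deep ones, as given above.

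Genes with the smallest ratio of the high to the low group were Hba-x, Cmtm7, Cdca7, Apoe, Rpa2, Zfos1, Trp53, Hmgn2, Nme4 and Klk8. Hba-x owed its place to 1 cell with 96.3% of its UMIs in the low group. Cdca7 and Rpa2 take part in DNA replication or the S phase and are members of the S phase list. Apoe (apolipoprotein E) went from 813 CPM through 295 to 89.4, and Cmtm7 from 178 to 9.93. With all 102 cells the genes were Id2, Id3, Dlk1, Nfib, Dcn, Plagl1, S100a8, Peg3, Hba-x and Sfrp1, of which Id2, Id3, Nfib, Dcn and Sfrp1 were among the 15 genes with the largest ratio of the cells with at most 1 marker to the others.

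Several regulators changed by unequal amounts in the 2 libraries. Gata1 in the high group was 3.15-fold the low group (2.42 to 4.14), with 5.63 in library 1 and 2.02 in library 2. Nfe2 was 3.30-fold the low group (2.48 to 4.43), with 5.87 and 2.11. Lyl1, a basic helix-loop-helix factor, was 3.61-fold (2.72 to 4.85), with 7.23 and 2.37, and Mafg, the small partner of NF-E2, was 5.44-fold (3.07 to 10.3), with 9.92 and 3.41. All 4 were thus higher in the high group of both libraries, by more in library 1, whose high group was the shallower. Fli1 was at 166 CPM in the low and 206 in the high group, a ratio of 1.24 (0.90 to 1.70). Runx1 was at 91.0 and 89.4 CPM, a ratio of 0.98 (0.62 to 1.55). Neither differed beyond its counting error in these 85 cells. With all 102 cells, as first planned, both did, with Fli1 at 1.94-fold (1.37 to 2.75) and Runx1 at 1.75-fold (1.11 to 2.81). The ratio of Runx1 was then 0.79 in library 1 and 4.93 in library 2. Mafg was 2.73-fold the low group (1.77 to 4.31) with all 102 cells. Lmo2, a bridging protein of the GATA1 complex, was at 517 and 278 CPM, a ratio of 0.54 (0.43 to 0.67). Of the cell cycle regulators, Cdkn2d was 6.33-fold the low group (4.83 to 8.41), and Cdk6 was at 0.13 times its level (0.03 to 0.36). With all 102 cells Cdk6 was at 0.28 times the low group (0.10 to 0.66). Cdk4 was at 0.36 times the low group (0.29 to 0.46), with 0.0363 in library 1 and 0.542 in library 2, and Ccnd2 at 0.34 times (0.19 to 0.58), with 0.166 and 0.460. Myc went from 15 UMIs to 1 and Myb from 14 to 1.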

How the data were processed

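Per the labels, 2 technical replicate libraries of 1 wild-type liver were made by droplet capture after digestion, dissociation and sorting that removed debris, dead cells and doublets. The authors mapped reads to mm10 and deposited UMI count matrices per barcode, with bcl2fastq 2, Cell Ranger 2.1.1 and Seurat 3.2.0 named in the submitters' processing notes, and a table of cell types that they had named from clusters of the same cells. The headers of the library 1 matrices name software version 3.0.0 and those of library 2 name none, and whether cells were called alike in both was not tested. The 6 other columns of that table were not used.

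Counts were joined to cell types by barcode and summed per library and type (Python 3.11.15, numpy 2.4.6, scipy 1.17.1, pandas 2.3.3, matplotlib 3.10.9). Levels carried exact Poisson intervals, ratios exact conditional binomial intervals and shares Clopper-Pearson intervals. A gene with 0 UMIs was set to a floor of 3 counts over the group. No doublet caller was run. With 1 liver, no test across samples was made, and calls are rules of size, whose code was tested on simulated data. Depth was 770048 and 1014143 UMIs for Mk.

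The cells, the 23 gene lists and the rules were chosen with earlier results of these data known. Genes were named by rule, namely the 4 markers, the 15 of highest level, the 15 highest and 10 lowest ratios to HPSC and to Ery (50 CPM or more in each library), the leading and the lower members of each list, the transcription factors and Kit, the 5 highest and 5 lowest ratios between libraries and within library 1 (50 and 200 CPM or more), and the 10 highest and 10 lowest ratios along the order (100 CPM or more). Some genes that the rule names are not reported here. Genes of the cells with few markers were chosen after their values were seen. Alternatives covered libraries left out, cell filters, scaling, deep cells, free RNA, shared barcodes, thresholds and the order.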

Additional observations from a re-analysis of the deposited data

Results flagged for a closer look

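Marker transcripts were also found in barcodes that had not been called as cells and that entered no comparison. In library 2, 59 such barcodes had at least 10 UMIs of Pf4, Itga2b, Ppbp and Gp9, against 2 in library 1. The 59 barcodes held from 171 to 4274 UMIs, with a median of 1908, all under the 4387 UMIs of the shallowest annotated cell of that library. As they were chosen by these markers, the level of the markers in them is no finding. Of genes not used in the choice, Gp1bb was at 1344 CPM and Malat1 at 10847 CPM over the 59 barcodes, against 789 and 3193 CPM in the Mk cells of library 2. The 2 barcodes of library 1 held 156 and 239 UMIs. What these barcodes contain was not tested.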

How the results depend on the processing

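Of 114 alternative values of the main results, 67 stayed close to the reported value, 46 moved and 1 reversed. With a single library, the Pf4 level of 10782 CPM ranged from 10364 to 11100 and its ratio to HPSC from 1554 to 1927, the Mk share from 1.11 to 1.44% and the median UMIs per cell from 5699 to 16944.5. The G2 and mitosis ratio to HPSC ranged from 0.933 to 1.38, reversed to 0.933 without library 2, and its ratio along the order from 0.621 to 1.199. Genes higher than in HPSC numbered 284 to 431, lower 243 to 264, and against Ery 456 to 641 and 53 to 123, each from 1 library only.

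The lowest UMI count of library 2 applied to both libraries gave a Pf4 level of 10598 CPM, a G2 and mitosis ratio to HPSC of 1.18 and a median of 16193 UMIs. Pf4 was at 10467.5 CPM with at least 1000 genes and under 10% mitochondrial UMIs, and at 11592 CPM without globin and mitochondrial UMIs. As a mean of per-cell CPM, Pf4 was at 10163.5 CPM, the G2 and mitosis ratio to HPSC was 1.11 and that along the order 0.850. Without the 5% of cells with most UMIs, Pf4 was at 8568 CPM and the ratio to HPSC was 1.19. With free RNA subtracted, Pf4 was at 12134 CPM, at least 24567-fold HPSC, where it was at the floor of 3 counts over the group, and 93 genes were lower than in Ery. With at least 2 of the 4 markers, a choice made after seeing the data, Pf4 was at 12443 CPM, the share was 0.968%, the median was 15279.5 UMIs and 70 genes were lower than in Ery. Without the Mk cell with the most Pf4 UMIs, also a later choice, Pf4 was at 9782 CPM and the G2 and mitosis ratio along the order was 1.12.

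A fold of 2 gave 573 genes higher and 415 lower than in HPSC and 845 higher and 304 lower than in Ery, and a fold of 8 gave 163 and 95 against HPSC and 7 lower than in Ery. At least 50 CPM gave 168 higher and 100 lower than in HPSC and 259 and 29 against Ery, and at least 5 CPM gave 526 and 1016 higher. The G2 and mitosis ratio along the order was 1.11 by Pf4 alone, 1.196 when thinned to 7200 UMIs, 1.14 with 2 groups, 0.881 with 4 and 1.09 with seed 3. The causes were not tested. No paired analysis was possible because both libraries belong to a single group. The depth of the 35 shallow cells and the 33 cells with at most 1 marker limit what single Mk cells can show.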

Other observations

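Outside the Mk cells, at least 3 of the 4 markers were found in 32 cells, of which 27 were Ery (1.54% of 1750, 1.02 to 2.24%), 17 in library 1 and 10 in library 2, and none were among the 421 HPSC. The 27 cells were chosen by the markers, so that Pf4 at 459 CPM against 5.79 CPM in the other 1723 Ery is no finding. Of genes not used in the choice, Gp1bb was at 92.8 CPM against 5.87 CPM, Fli1 at 37.5 against 5.54, Meis1 (a homeobox factor of stem cells and megakaryocytes) at 58.6 against 5.63 and Rab27b at 40.7 against 3.24. The erythroid gene Klf1 was at 453 against 544 CPM. Kit was at 34.2 against 19.0 CPM. The median depth was 21062 UMIs in the 27 cells and 22889 in the other Ery, and whether some of the 27 barcodes held more than 1 cell was not tested.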
